A study of Mus musculus with 18 samples.

Results

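The neighbourhood of the Ifng gene on mouse chromosome 10 was examined in 4C data, a genome-wide readout of the DNA that lies close to a chosen gene in the nucleus. All array probes that start between 116750000 and 118750000 (mm8 coordinates, inferred from the probe positions) were taken, which gave 306 of the 384942 probes on the array. The window spans 2 Mb, and it was chosen by position, not by signal. The probes lay between 116750508 and 118738654 with a median gap of 4725 bp. The widest gaps were 51.4 kb (from 117719993 to 117771384) and 37.4 kb (from 117631528 to 117668930), so the stretch between 117631528 and 117771384 was the most thinly covered.

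The study, whose title concerns STAT binding and nuclear architecture in differentiating T cells, hybridised DNA joined to a bait gene (Cy5) against genomic DNA cut with the same enzymes (Cy3). The deposited log2 ratio of a probe is the quantity given throughout, as a level after subtraction of the median of that array's probes off the bait chromosome, so that 0 is the typical probe elsewhere in the genome. The Ifng bait was used on 10 arrays in 5 groups of 2. They were 3T3-L1, a mouse preadipocyte line of fibroblast origin, Stat4 knockout (KO) CD4 T cells cultured as Th1 cells, Th1 cells, Th2 cells and naive CD4 T cells. The last 3 groups are called T cells here, and they carry no genetic change that the labels name. A second set of 8 arrays used Il4 on chromosome 11 as bait, in Stat6 KO Th2, Th1, Th2 and naive cells, and shows what the same probes read when Ifng is not the bait. No source used here gives strain, age, culture times or the form of the knockout alleles. The arrays read DNA contacts, so neither cell identity nor the loss of STAT4 could be checked against marker genes. The design text counts the arrays as individual biological replicates apart from 1 made from a pool, without saying which or whether mice were separate. The p-values below therefore measure the spread between these arrays.

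Ifng encodes interferon gamma, the main effector cytokine of Th1 cells. Il22, which encodes the epithelium-directed cytokine interleukin 22, lies beside it, and the locus holds enhancers on both sides of Ifng that T cells open during differentiation. STAT4, which is activated by interleukin 12, and the factor T-bet drive Ifng in Th1 cells, whereas Th2 cells, under STAT6 and GATA3, silence it. In a 4C experiment the signal is usually strongest around the bait because DNA next to it on the chromosome is tethered nearby.

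The files give no gene for any probe, and no annotation of the array's build was used, so genes are named only by their order. In RefSeq's GRCm38.p6 annotation, Mdm2, which encodes the main inhibitor of p53, and Cand1, a regulator of cullin ubiquitin ligases, enclose the locus with 44 genes counted including both. Of these, 10 are protein-coding, 20 are long noncoding RNAs and 14 are pseudogenes. The protein-coding genes follow each other as Mdm2, Slc35e3, Nup107 (a nuclear pore subunit), Rap1b (a small GTPase), Mdm1, Il22, Iltifb (a second interleukin 22-related gene), Ifng, Dyrk2 (a protein kinase) and Cand1. Between Il22 and Ifng lie 13 genes, 12 pseudogenes and Iltifb. The noncoding Ifngas1, an antisense neighbour also known as NeST, follows Ifng directly. Which bin or probe below holds which of these genes was not assigned.

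The promoters of the bait gene and of Il22 are shown because they are the genes from which the window takes its interest, 250 bases before to 50 bases after the start of each gene, from RefSeq (GRCm38.p6, both on the + strand). Ifng lies at chr10:118440796-118441095 and Il22 at chr10:118204714-118205013 in that build. Capitals mark every match, on either strand, to the HindIII site AAGCTT and the Csp6I site GTAC used to make the 4C libraries, to the STAT motif TTCNNNGAA and to the TATA motif TATAAA.
Ifng: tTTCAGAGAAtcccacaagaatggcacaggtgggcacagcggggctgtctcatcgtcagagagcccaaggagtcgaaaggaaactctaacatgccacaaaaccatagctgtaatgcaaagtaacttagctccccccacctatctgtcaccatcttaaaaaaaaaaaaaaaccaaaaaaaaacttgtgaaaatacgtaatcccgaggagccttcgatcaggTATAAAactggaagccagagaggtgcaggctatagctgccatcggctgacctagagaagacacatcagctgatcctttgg
Il22: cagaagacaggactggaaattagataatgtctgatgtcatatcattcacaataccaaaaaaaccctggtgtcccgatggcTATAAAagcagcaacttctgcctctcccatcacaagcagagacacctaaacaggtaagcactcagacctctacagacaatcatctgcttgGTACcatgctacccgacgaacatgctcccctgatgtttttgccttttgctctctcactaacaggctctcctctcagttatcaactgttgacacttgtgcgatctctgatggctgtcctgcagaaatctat
The Ifng window holds 1 STAT motif at its upstream end and 1 TATAAA, and no HindIII or Csp6I site. The Il22 window holds 1 TATAAA and 1 Csp6I site, and neither a STAT motif nor a HindIII site. Among 32851 mouse promoters of the same length, 8.30% hold TTCNNNGAA, 13.6% hold TATAAA, 35.8% hold GTAC and 7.45% hold AAGCTT. No motif overlaps another in the Ifng or the Il22 window. These are letter matches only, and the arrays did not measure binding.

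Before the window is described, 1 array needs a caution. Over all probes, Ifng Th1 replicate 2 correlated better with Il4 Th2 replicate 2 (r = 0.35) than with its own replicate (r = 0.15). Inside the window the order was the other way round, with r = -0.22 to that Il4 array and r = 0.63 to Th1 replicate 1. The window signal of Th1 replicate 2 therefore followed the Ifng bait. Its window r was slightly higher still with arrays of other groups. It was 0.67 with Th2 replicate 2, 0.64 and 0.65 with 3T3-L1 and 0.63 with naive replicate 1. With the remaining Ifng arrays it was 0.50 to 0.54. The check thus speaks to the bait and not to the cell type. Each Th1 comparison is given with this array, and some of its test results also without it. Medians, counts of lower bins and counts of bins without overlap include both Th1 replicates. Once sorted, the values of replicate arrays were almost equal in 7 of 9 groups, with 99.5% to 100% of values within 0.011. The exceptions were the Ifng Th1 pair (42.8%) and the Il4 Th2 pair (10.8%), the pairs that hold Ifng Th1 replicate 2 and Il4 Th2 replicate 2. The replicates also had equal maxima in naive cells (4.98), Th2 cells (5.63) and 3T3-L1 (4.25). Whether the authors equalised the other pairs was not stated. Replicates with the same distribution of values may differ less than separate samples would. The SDs and limma p-values below carry this limit. The leading digits of the array serial numbers, called a serial series here, put both naive arrays and Th1 replicate 1 in 1 series and both Th2 arrays and Th1 replicate 2 in another. The Stat4 KO pair had a series of its own and each 3T3-L1 array was alone in its own. For these groups the series and the cell type cannot be told apart. The same holds for Th2 against naive cells, whose series are linked only through the Th1 pair.

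The whole window formed a plateau of signal in every Ifng array. The mean of the 306 probes was 2.09 and 2.20 in 3T3-L1, 2.19 and 2.21 in Stat4 KO Th1, 2.18 and 2.85 in Th1, 3.39 and 3.32 in Th2 cells, and 3.28 and 2.77 in naive cells. The 8 Il4 arrays had means between 0.03 and 0.15 over the same probes. Th2 and naive arrays stood higher than the 3T3-L1 and Stat4 KO arrays without overlap, and the Th1 replicates were far apart, replicate 2 next to naive replicate 2 and replicate 1 with the low groups. As group means this was 2.15 ± 0.08 in 3T3-L1, 2.20 ± 0.01 in Stat4 KO Th1, 2.52 ± 0.48 in Th1, 3.35 ± 0.05 in Th2 cells and 3.02 ± 0.36 in naive cells (SD, n = 2 each). In this order 3T3-L1, Stat4 KO and Th1 overlapped, and so did Th1 and naive cells. Th2 and naive cells did not overlap, but their means were closer together than the 2 naive arrays were.

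Signal in the window went with the strength of the surrounding chromosome in all groups but Th1. In the flanks 1 to 2 Mb from the window centre the mean was 1.55 and 1.55 in 3T3-L1, 1.90 and 1.84 in Stat4 KO Th1, 1.35 and 0.93 in Th1, 2.57 and 2.81 in Th2 cells, and 2.58 and 2.30 in naive cells. Th1 replicate 2 had the lowest flank of the 10 arrays and yet a high window, so that its window exceeded its flank by 1.92, against 0.29 to 0.84 in the other 9. How much of a group difference in the window is the strength of a library as a whole was not tested, and differences below are given beside the median difference of the window for that reason.

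**Figure D1:**
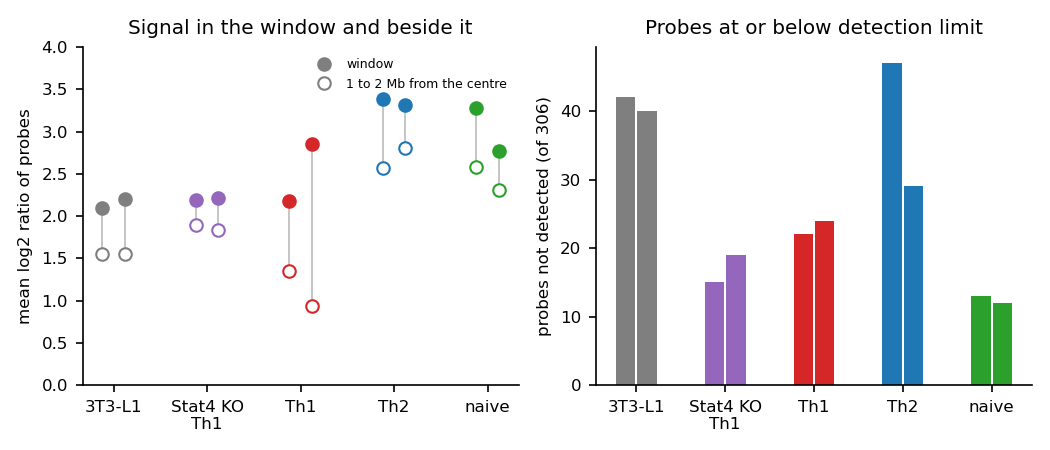
Left, mean log2 ratio of the 306 window probes (filled) and of the probes 1 to 2 Mb from the window centre (open) for each array. Right, number of window probes at or below the array's detection limit. Each point or bar is 1 array, replicate 1 left of replicate 2, and the line joins the values of 1 array. Th1 replicate 2 combines a window mean of 2.85 with the lowest flank of 0.93, and 40 to 42 probes were undetected in 3T3-L1 against 12 and 13 in naive cells.

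Signal continued beyond the edges of the window in most arrays. The last 50-kb bin before it (116700001 to 116750000) read 2.93 and 2.92 in 3T3-L1, 1.88 and 2.12 in Stat4 KO Th1, 1.80 and 2.27 in Th1, 3.64 and 3.21 in Th2 cells and 3.02 and 2.53 in naive cells. The first bin inside (116750001 to 116800000) read 2.24 and 2.43 in 3T3-L1, 1.95 and 1.97 in Stat4 KO Th1, 2.25 and 2.19 in Th1, 3.61 and 3.18 in Th2 cells and 3.06 and 2.89 in naive cells. Both 3T3-L1 arrays were lower inside than before the edge, by more than their replicates differed. At the far end, the last bin inside (118700001 to 118750000, 4 probes) read 1.46 and 1.57 in 3T3-L1, 2.32 and 2.25 in Stat4 KO Th1, 2.07 and 0.86 in Th1, 3.12 and 3.58 in Th2 cells and 3.54 and 3.48 in naive cells. The bin after it (118750001 to 118800000) read 2.06 and 2.09 in 3T3-L1, 2.00 and 2.39 in Stat4 KO Th1, 1.90 and 0.25 in Th1, 2.49 and 2.96 in Th2 cells and 3.33 and 3.15 in naive cells. Th1 replicate 2 was the exception there, since its signal dropped near this edge, with 2.18 in the bin before these (118650001 to 118700000) and 0.54 in the bin after them (118800001 to 118850000).

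Nearly every window probe carried signal above the rest of the genome. A probe was called detected when it exceeded the 95th percentile of the array's own probes off the bait chromosome, a limit of 0.57 to 0.79 that was chosen after the values were seen. By this limit 86.3% and 86.9% of the window probes were detected in 3T3-L1, 95.1% and 93.8% in Stat4 KO Th1, 92.8% and 92.2% in Th1, 84.6% and 90.5% in Th2 cells and 95.8% and 96.1% in naive cells. In the Il4 arrays it was 4.58% to 9.48%, close to the level that the limit sets. In all 10 Ifng arrays 216 of the 306 probes were detected, and 5 were detected in none. Between neighbouring probes the levels did not vary together (r from -0.11 to 0.10 within an array over the 306 probes), while the same probe in replicate arrays did (r from 0.62 to 0.91). The level of a single probe thus repeated between arrays, with r of 0.91 for the 3T3-L1 pair, 0.84 for Stat4 KO Th1, 0.63 for Th1, 0.62 for Th2 and 0.72 for naive cells. Between arrays of different groups r was 0.25 to 0.70.

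For the larger scale the probes were averaged in 50-kb bins, of which 37 of 40 held at least 5 probes. Counted from the start of the window, these are bins 1 to 37. The bin with the highest mean over the 10 arrays, 3.30, was bin 17 from 117550001 to 117600000 with 9 probes, called the top bin here. It was chosen by its level, and no source used here gives the position of the bait primers, so whether it holds the bait is not known. It read 2.96 and 3.24 in 3T3-L1, 2.50 and 2.72 in Stat4 KO Th1, 2.67 and 3.63 in Th1, 4.32 and 4.09 in Th2 cells and 3.80 and 3.12 in naive cells. Th2 was highest there and Stat4 KO lowest, without overlap between the 2 groups. It ranked 1 to 6 among the 37 bins of an array and was first in 4 of the 10 arrays, ranks that its choice by the mean favours. Its neighbour before (bin 16, 117500001 to 117550000) averaged 2.92 over the 10 arrays and its neighbour after (bin 18, 117600001 to 117650000) 2.46. The lowest bin, bin 37 from 118650001 to 118700000, averaged 1.76.

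Within the window the levels of single probes showed little relation to the distance from the top bin. Over the 306 probes of an array, the correlation of level with distance from the centre of that bin was between -0.24 and 0.02. The same correlation over bins was not computed. The bins of an array spread with an SD of 0.24 to 0.76. Window probes were among the highest of their arrays, and saturation of the arrays was not measured. The highest window probe was at most 0.36 below the highest of all 384942 probes of the same array, and it was itself that highest probe in Th1 replicate 2, Th2 replicate 2 and 3T3-L1 replicate 2. In Th1 replicate 2, 5 probes shared 1 maximum of 5.00, 1 of them in the window at 117711846. Between 1.63% (Stat4 KO Th1 replicate 1) and 21.6% (naive replicate 1) of the window probes lay within 1 log2 unit of the array's maximum, against 0% to 0.33% in the Il4 arrays. The maxima themselves differed, from 4.09 in Th1 replicate 1 to 5.63 in both Th2 arrays. A single probe held the maximum in each Ifng array other than Th1 replicate 2.

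The 10 probes with the highest mean over the arrays were spread over the window. The first was at 117554667 in the top bin, with 3.86 and 3.93 in 3T3-L1, 3.16 and 3.32 in Stat4 KO Th1, 2.98 and 4.65 in Th1, 5.36 and 5.37 in Th2 cells and 4.36 and 3.39 in naive cells. The next lay in or next to that bin, at 117536563, 117588255 and 117599612, and a pair lay at 117708438 and 117711846. Others were as far as 116985072 and 118461436. Their means over the 10 arrays ran from 3.73 to 4.04, and the Il4 arrays averaged between -0.46 and 0.44 at the same probes.

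**Figure D2:**
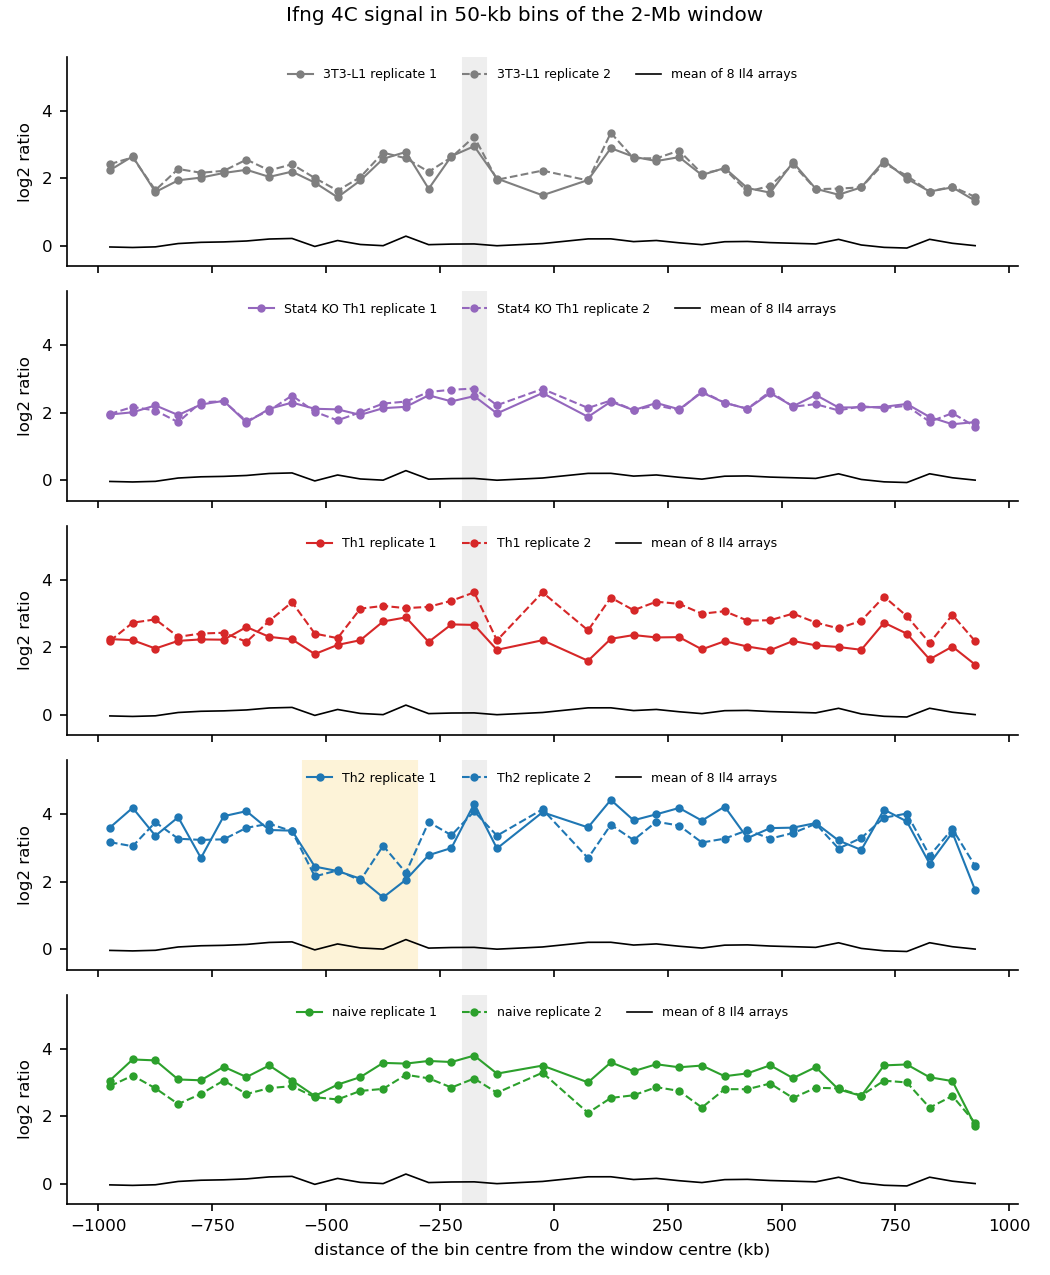
Mean log2 ratio per 50-kb bin against the distance of the bin from the window centre (kb), 1 panel per Ifng group, solid line replicate 1, dashed line replicate 2, and in black the mean of the 8 Il4 arrays. Grey marks the top bin and yellow, in the Th2 panel, the 250 kb in which the Th2 mean was under 2.5. All Ifng arrays stay between 1.34 and 4.43 while the Il4 arrays stay near 0.

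The first comparison asked what the plateau owes to the bait, by setting the Ifng T cell arrays against Il4 arrays of the same cell types. All 37 bins were higher with the Ifng bait (limma, Benjamini-Hochberg adjusted p under 0.05), with differences of 1.91 to 3.64 and a median of 2.91. Among bins of all chromosomes 2.36% were called higher and on the rest of chromosome 10 it was 43% of bins. In the top bin the T cell arrays averaged 3.60 ± 0.62 with Ifng and -0.03 ± 0.19 with Il4 (SD, n = 6 each), a difference of 3.64 (SE 0.14, limma adjusted p = 8.56e-11). That bin was chosen by its level in the Ifng arrays, so its p-value is not separate evidence that it is higher. In bin 33 (118450001 to 118500000) the T cell arrays averaged 3.48 ± 0.52 with Ifng and -0.07 ± 0.09 with Il4, a difference of 3.54. In bin 19 (117700001 to 117750000) the averages were 3.48 ± 0.70 with Ifng and 0.01 ± 0.18 with Il4. The arrays of the 2 baits did not overlap in any of the 37 bins, with the Ifng arrays above, as in 0.826% of all bins and 12.3% of the rest of chromosome 10. As single probes, 270 of 306 were higher with Ifng (0.724% of all probes were called in either direction) and 0 were lower. A few probes were also read without the Ifng bait: at 117439017 the Il4 arrays reached 3.03 in naive replicate 1 and 2.66 in Th2 replicate 2, and 4 of 8 Il4 arrays passed their limit.

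3T3-L1 cells had a lower plateau than Th2 and naive cells, and more undetected probes than naive or Th1 cells. The low level was not particular to them. The window mean was 2.09 and 2.20 in 3T3-L1, against 2.19 and 2.21 in Stat4 KO Th1 and 2.18 in Th1 replicate 1. Stat4 KO arrays are not among the T cells in this comparison. Of the 37 bins 13 were lower than in T cells and 0 higher (limma adjusted p under 0.05), against 0.575% of bins of all chromosomes and 10.5% of the rest of chromosome 10 called lower, and 0.446% and 1.2% called higher. The difference was below 0 in all 37 bins, with a median of -0.76 in the window, -0.0026 over all bins and -0.20 over the rest of chromosome 10. In 17 bins both 3T3-L1 arrays lay below all 6 T cell arrays, as they did in 5.51% of all bins and 14.9% of the rest of chromosome 10.

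The called bins with the largest separated differences were bins 3, 30 and 28. Bin 3 (116850001 to 116900000) read 1.60 and 1.65 in 3T3-L1, against 1.97 and 2.83 in Th1, 3.37 and 3.77 in Th2 cells and 3.66 and 2.83 in naive cells. The difference was -1.44 (SE 0.24, limma adjusted p = 0.0222). Bin 30 (118300001 to 118350000) read 1.69 ± 0.01 in 3T3-L1 (SD, n = 2) and 3.10 ± 0.66 in T cells (SD, n = 6), a difference of -1.41 (SE 0.19). Bin 28 (118200001 to 118250000) read 1.68 ± 0.14 in 3T3-L1 and 3.01 ± 0.62 in T cells, a difference of -1.33. The Stat4 KO arrays read 2.22 and 2.07 in bin 3, 2.53 and 2.26 in bin 30, and 2.59 and 2.64 in bin 28. All 3 lie away from the top bin, where 3T3-L1 overlapped with T cells. Bin 19 differed most, by -1.61, but its arrays overlapped. Of the 13 called bins 8 lay between 118150001 and 118650000 (bins 27 to 36), a stretch picked after the calls were seen.

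The calls needed both 3T3-L1 arrays: with either left out, 0 bins were called. Scaling the arrays to equal flanks also left 0 calls, and quantile normalization left 1 bin, called higher. The mean of the 33 bins over 100 kb from the top bin was 2.07 and 2.18 in 3T3-L1, against 2.17 and 2.83 in Th1, 3.38 and 3.25 in Th2 cells and 3.23 and 2.72 in naive cells. Here 3T3-L1 replicate 2 and Th1 replicate 1 were almost equal, and the difference of -0.81 did not pass an exact two-sided permutation test (p = 0.0714 over 28 splits of the arrays, of which the smallest possible is 0.0357). Without Th1 replicate 1 the difference was -0.96, with an exact permutation p = 0.0476, and without Th1 replicate 2 it was -0.83 (p = 0.19 by the same exact test). The balance between both sides of the top bin (mean of bins 100 to 750 kb before it minus the mean 100 to 750 kb after it) was -0.08 and -0.04 in 3T3-L1 and between -0.83 and 0.17 in T cells, a difference of 0.16 that did not pass the same exact permutation test (p = 0.607).

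Probe by probe, 3T3-L1 had the largest set of undetected probes of its own. At 12 probes both 3T3-L1 arrays were at or below their limit while all other 8 Ifng arrays were above theirs. There were 5 such probes in Stat4 KO Th1, 3 in Th2 cells and 0 in Th1 and naive cells, and no probe was detected in both arrays of 1 group alone. The limit was highest in 3T3-L1, at 0.79 in both arrays, against 0.57 to 0.78 in the other Ifng arrays, which favours undetected probes there. The share of such probes outside the window was not computed, so these counts have no background to be read against. Of the single probes 20 were lower in 3T3-L1 than in T cells and 0 higher (0.341% of all probes were called in either direction). The probe at 118543339 read 0.73 and 0.38 in 3T3-L1, against 2.43 and 3.88 in Th1, 3.80 and 4.78 in Th2 cells and 4.36 and 3.96 in naive cells. The difference was -3.31 (SE 0.40, limma adjusted p = 0.0283). The probe at 118461436, 1 of the 10 highest by mean over the arrays, read 1.87 and 1.92 in 3T3-L1, against 3.66 and 4.22 in Th1, 4.70 and 4.93 in Th2 cells and 4.72 and 4.65 in naive cells. It stayed detected in 3T3-L1 but lay 2.59 lower. Both examples were chosen after their values were seen.

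**Figure D3:**
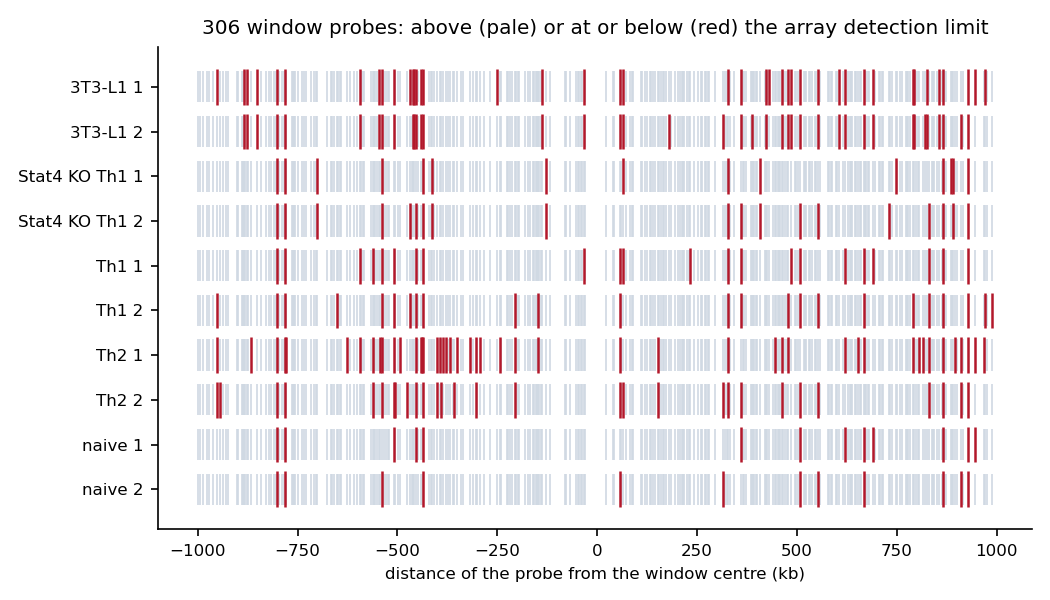
Each vertical stroke is 1 of the 306 window probes at its distance from the window centre (kb), red where the probe was at or below the detection limit of the array and pale where it was above. Rows are the 10 Ifng arrays, from 3T3-L1 to naive cells. The 3T3-L1 arrays share most of their 42 and 40 undetected probes, and Th2 replicate 1 has a cluster left of the centre.

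Stat4 KO Th1 cells, set against Th1 cells to see what the locus looks like without STAT4, had no bin past the threshold. Of 37 bins, 0 were called (limma, adjusted p from 0.278 to 0.998), as were 0 of all 46596 bins (0% called). At an unadjusted p under 0.05, 7 window bins and 3262 of all bins differed. The median difference in the window was -0.33, with 33 of 37 bins lower. Over the rest of chromosome 10 the median was 0.15 higher in Stat4 KO cells. The lower window level rested on Th1 replicate 2. Over the 37 bins the Stat4 KO arrays averaged 2.17 and 2.20, against 2.19 in Th1 replicate 1 and 2.86 in replicate 2. In 14 bins both Stat4 KO arrays lay below both Th1 arrays, a pattern found in 17.8% of all bins and 9.25% of the rest of chromosome 10. They lay above in 0 bins, against 20.9% and 36.3%.

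The 3 bins with the smallest p, none of which passed, were bins 14, 33 and 7. Bin 14 (117400001 to 117450000) read 2.18 and 2.34 in Stat4 KO Th1, against 2.89 and 3.16 in Th1, a difference of -0.77 (SE 0.15, limma adjusted p = 0.278). Bin 33 read 2.18 and 2.14 in Stat4 KO Th1, against 2.73 and 3.50 in Th1, and bin 7 (117050001 to 117100000) 1.72 and 1.76 in Stat4 KO Th1, against 2.60 and 2.17 in Th1. The arrays did not overlap in any of the 3, but their adjusted p was 0.278 to 0.577. Without Th1 replicate 2, as without replicate 1, 0 bins were called. Quantile normalization called 2 bins lower and flank scaling called 1 lower. The Stat4 KO arrays had the flattest window, with an SD over bins of 0.24 and 0.29 and 1 and 5 window probes among the array's highest 100, against 4 to 38 in the other 8 arrays.

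A single probe went the other way. The probe at 118211389 was the only window probe called between Stat4 KO Th1 and Th1 (0.0642% of all probes were called in either direction). It read 3.63 and 3.54 in Stat4 KO Th1, against 1.33 and 1.06 in Th1, a difference of 2.39 (SE 0.18, limma adjusted p = 0.0139). The other groups were spread below the knockout as well, with -0.28 and -0.36 in 3T3-L1, 0.41 and 0.41 in Th2 cells and 2.41 and 2.16 in naive cells. The 5 groups did not overlap at this probe, and the replicates of a group lay closer together than any pair of groups. It was also called lower in Th2 than in naive cells (-1.88) and lower in 3T3-L1 than in T cells (-1.61). The Il4 arrays read between -0.64 and 0.25 there. The knockout arrays have a serial series of their own, so the series and the genotype cannot be told apart in this value.

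Th1 cells had lower signal than naive cells over most of the window, without a bin that held up. The median difference was -0.48, against -0.26 over the rest of chromosome 10, and 36 of 37 bins were lower. Over the 37 bins Th1 averaged 2.19 and 2.86, against 3.27 and 2.75 in naive cells, so Th1 replicate 2 lay above naive replicate 2. In 18 bins both Th1 arrays lay below both naive arrays, as they did in 17.6% of all bins and in 47.9% of the rest of chromosome 10, so the window was near its chromosome in this count. Bin 1 (116750001 to 116800000) was the only bin called, against 1.04% of all bins and 16.7% of the rest of chromosome 10 called lower. It read 2.25 and 2.19 in Th1, against 3.06 and 2.89 in naive cells, a difference of -0.76 (SE 0.14, limma adjusted p = 0.0339). With any 1 of the 4 arrays left out it missed the threshold (adjusted p = 0.237 without Th1 replicate 2), and with flanks scaled to each other its sign turned. As a single probe, 118725303 was lower in Th1 (0.169% of all probes were called in either direction), at 1.48 and 2.02 in Th1, against 3.74 and 3.71 in naive cells.

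Th2 cells had the strongest plateau and a dip inside it. The median difference from naive cells was 0.46, against -0.06 over the rest of chromosome 10. In 19 bins both Th2 arrays lay above both naive arrays, as in 24.1% of all bins and 21.1% of the rest of chromosome 10, and none of these passed the test. In 4 bins both Th2 arrays lay below both naive arrays (15% of all bins and 34% of the rest of chromosome 10). Bin 14 (117400001 to 117450000), 150 kb before the top bin, was the only call, against 0.773% of all bins and 12.9% of the rest of chromosome 10 called lower. It read 2.06 and 2.27 in Th2, against 3.56 and 3.23 in naive cells, a difference of -1.23 (SE 0.15, limma adjusted p = 0.00277) and of -1.69 from the window median. The call held with each array left out in turn and in 7 of 14 alternatives in all, and was lost among others with the median of the bin's probes in place of the mean (-0.51, adjusted p = 0.47), with the serial series as a block (-1.50, adjusted p = 0.391) and with flanks scaled (-1.14).

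The bin is made of 5 probes that did not move together. At 117446807 Th2 read -0.02 and 0.20, against 3.06 and 3.34 in naive cells, and at 117431958 it read 0.27 and 3.04, against 3.93 and 2.41 in naive cells. At 117408278 it read 3.05 and 1.57, against 4.06 and 4.27 in naive cells. At 117415059 Th2 was lower by less, with 3.10 and 2.77, against 3.18 and 3.25 in naive cells. Only at 117439017 was Th2 as high, with 3.91 and 3.76, against 3.60 and 2.89 in naive cells. This is the probe named above that some Il4 arrays also read above their limit. The low mean of the bin thus came mainly from 3 of its 5 probes. Of these, 117446807 was near 0 in both Th2 arrays, 117431958 in replicate 1 alone and 117408278 in neither.

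The dip extended over neighbouring bins. The Th2 mean was under 2.5 in 6 of 37 bins, 5 of which (bins 10 to 14) were adjacent, from 117200001 to 117450000, 250 kb with 40 probes. This stretch was picked on the Th2 values themselves and is described without a test. Inside it the probes averaged 2.09 and 2.39 in Th2, against 3.14 and 2.73 in naive cells, and in the rest of the window 3.59 and 3.46 in Th2, against 3.30 and 2.77 in naive cells. The level inside minus outside was -1.49 and -1.07 in Th2 cells and between -0.16 and 0.14 in the 8 arrays of the other groups. Th1 replicate 2, of the same serial series as both Th2 arrays, had -0.03. It is the array cautioned about above, and whether the series has a part in the dip of this stretch was not tested.

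The dip went with undetected probes. Of the 40 probes 16 and 10 were undetected in the Th2 arrays, that is 40% and 25%, against 11.7% and 7.14% in the rest of the window. In naive cells 3 and 2 of the 40 were undetected, in Th1 4 and 5, in Stat4 KO Th1 3 and 5, and in 3T3-L1 9 and 8. In every array of these groups the undetected share was also higher inside than in the rest of the window. It was 22.5% and 20% against 12.4% and 12.03% in 3T3-L1, and 7.5% and 5% against 3.76% in both naive arrays. A higher share inside was thus not particular to Th2, although the Th2 arrays had the highest shares inside. Over detected probes alone, Th2 averaged 3.51 and 3.20 inside and 4.03 and 3.72 outside. The Th2 replicates agreed only in part: 6 of the 40 probes were undetected in both, 10 in replicate 1 alone and 4 in replicate 2 alone. The probe at 117348547 was undetected in Th2 alone, with 0.03 and -0.09 in Th2, against 4.78 and 3.85 in naive cells, and was called lower by 4.35 on the log2 scale when single probes were tested, as -4.35 (SE 0.50, limma adjusted p = 0.0228). It read 3.14 and 2.80 in 3T3-L1, 2.95 and 2.92 in Stat4 KO Th1 and 2.78 and 4.35 in Th1. In all, 3 window probes were lower in Th2 than in naive cells by that test and 0 were higher (0.197% of all probes were called in either direction). The third probe undetected in Th2 alone, at 117900768, had 0.44 and 0.56 in Th2, against 3.55 and 2.02 in naive cells.

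Th1 cells set against Th2 cells showed both features at once, a lower plateau and no dip. Of 37 bins 7 were called (limma adjusted p under 0.05), 6 lower and 1 higher in Th1, against 0.305% of all bins called lower and 0.0365% called higher. On the rest of chromosome 10 it was 5.35% lower and 0.6% higher. The median difference was -1.02 in the window and -0.16 over the rest of chromosome 10. Both Th1 arrays lay below both Th2 arrays in 30 bins (22% of all bins and 38.1% of the rest of chromosome 10) and above them in 2 (20.2% and 13.4%).

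The bin that was higher in Th1 was again bin 14, with 2.89 and 3.16 in Th1, against 2.06 and 2.27 in Th2, a difference of 0.86 (SE 0.15, limma adjusted p = 0.0477). Bins 12 and 13 next to it were also above 0 without passing the test. Among the lower bins the largest differences were in bin 7, with 2.60 and 2.17 in Th1, against 4.10 and 3.60 in Th2 (-1.47, SE 0.21, limma adjusted p = 0.0206), bin 30, with 2.06 and 2.74 in Th1, against 3.74 and 3.72 in Th2 (-1.33), and bin 6 (117000001 to 117050000), with 2.23 and 2.43 in Th1, against 3.95 and 3.26 in Th2 (-1.27). Without Th1 replicate 2, 0 bins were called, without Th1 replicate 1 only 1, and without Th2 replicate 1, 3. After scaling to equal flanks bins 6, 7 and 30 were higher in Th1, with 1 window bin called, higher. The 2 probes called singly (0.0348% of all probes were called in either direction) were 117446807, higher in Th1 by 2.79, and 118725303, lower by 2.36 on the log2 scale (-2.36).

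**Figure D4:**
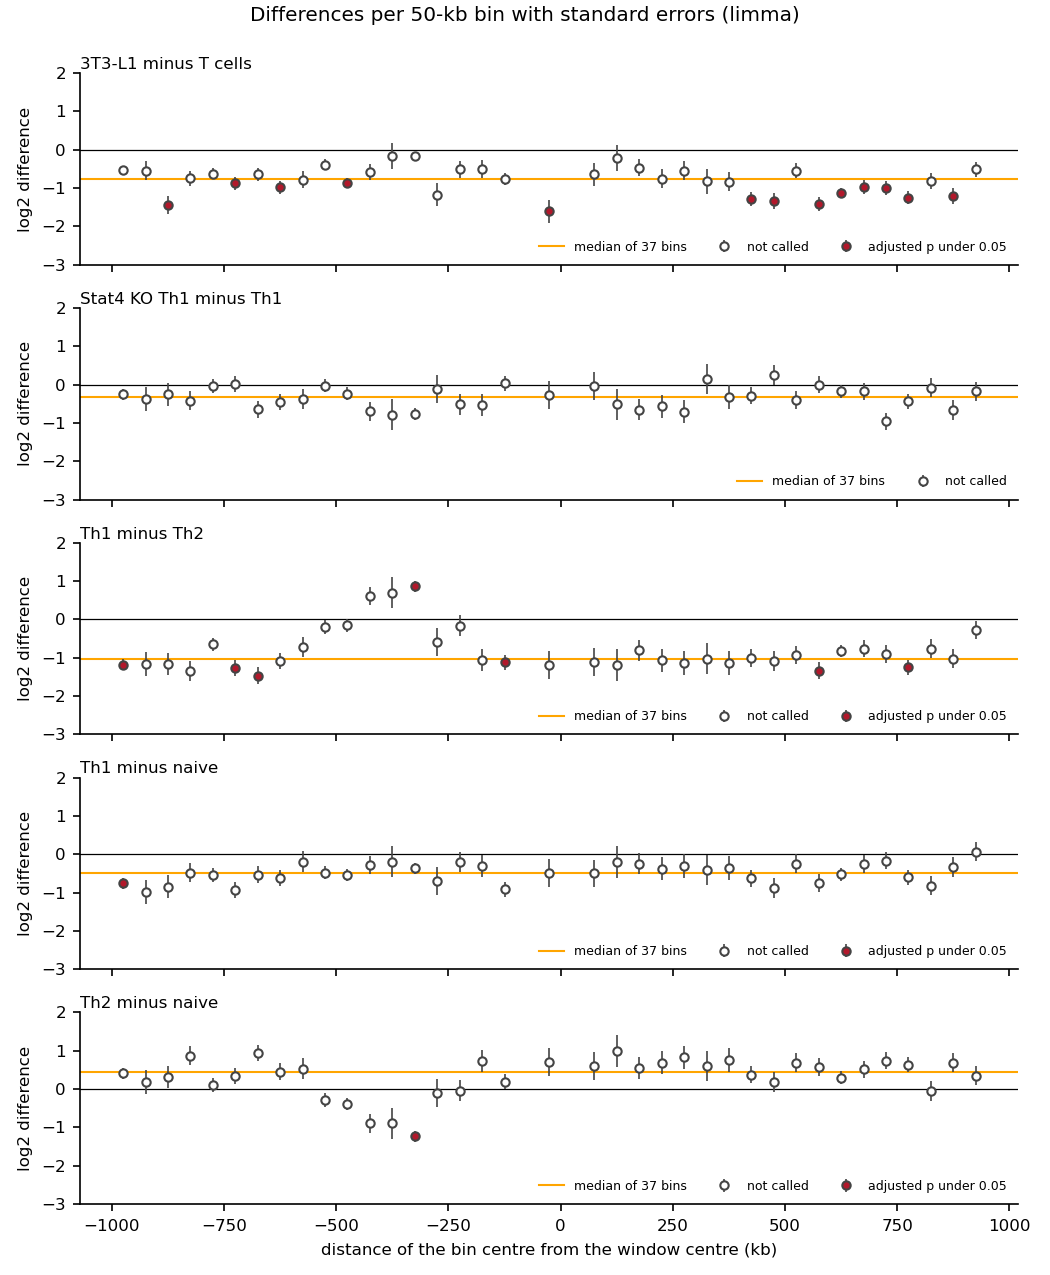
Difference in mean log2 ratio per 50-kb bin with its standard error (limma) against the distance from the window centre (kb), for 5 comparisons, filled where the adjusted p was under 0.05. The orange line is the median of the 37 bins. Points left of the centre rise above the line in the Th1 minus Th2 panel and fall below it in the Th2 minus naive panel, at bins 10 to 14.

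The comparisons share groups, so they are not independent: the Th1 arrays enter 4 of them and the naive and Th2 arrays 3 each among the Ifng arrays. Values of the dip in Th2 appear in each comparison with Th2 for that reason. At bin 14 the groups stood at 2.79 and 2.60 in 3T3-L1, 2.18 and 2.34 in Stat4 KO Th1, 2.89 and 3.16 in Th1, 2.06 and 2.27 in Th2 cells and 3.56 and 3.23 in naive cells. Stat4 KO Th1 and Th2 overlapped there and were the lowest groups.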

How the data were processed

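The authors deposited log2 ratios per probe and array, of 4C DNA in Cy5 over Cy3-labelled genomic DNA digested with HindIII plus Csp6I, per the labels' protocols. The base of the logarithm was taken as 2. The scanner software, background correction, any normalization and the genome build stay unstated in the sources used here. The build was inferred as mm8: 0 of 21 chromosomes were exceeded by a probe, against 15 for mm7, 5 for mm9 and 8 for mm10. The labels' protocols also mention adherent cells and other baits, and label 3T3-L1 cells as T cells. Groups follow titles and source names.

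From each array the median over probes on other chromosomes than that of the bait (10 for Ifng, 11 for Il4) was subtracted, with no loess or quantile step, since most probes near a bait carry signal. Means were taken over 50-kb bins holding 5 or more probes (46596 bins, 37 of them in the window). Groups were tested per bin, two-sided, by limma (version 3.58.1, under R 4.3.3; lmFit, then contrasts, then eBayes), all 5 Ifng groups in 1 fit (9 groups of both baits for the bait comparison), with Benjamini-Hochberg adjustment over all bins at 0.05. Arrays count 2 per group, which limits precision. Means of 3T3-L1 and T cell arrays were compared by exact permutation of arrays. Bins were named by a rule: in each comparison the 3 called bins with the largest change in each direction whose arrays do not overlap, or the 3 with the smallest p where none passes. The 10 highest probes are named as well, and other single probes were picked after their values were seen. The window, its lists and the rules were chosen with earlier results of these data known. In simulations with 200 changed bins, 72% to 98% of changes of 1 log2 unit and 97% to 100% of changes of 2 were recovered. Of the calls, 3.41% to 5.26% were false. The changed bins were drawn at random from all chromosomes, so recovery among the window bins was not measured. Replicate numbers did not pair the arrays (r of -0.04 to 0.07 between replicate differences of 10 pairs of Ifng groups). Alternatives were bins of 20 kb (at least 3 probes) and 100 kb, medians, single probes, at least 8 probes, quantile normalization, scaling by the spread off the bait chromosome or by the flanks, probes beyond 4 left out, eBayes with trend and robust settings, the compared groups alone, blocks, and each array left out. Chromosome lengths came from circlize 0.4.16, tables from pandas 2.3.3 with numpy 2.4.6 in Python 3.11.15, and figures from matplotlib 3.10.9.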

Additional observations from a re-analysis of the deposited data

How the results depend on the processing

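The counts of called window bins depended on the processing, except for the bait comparison. There every bin was called under each alternative that kept 37 bins, and with other bins 65 of 66 (20 kb), 20 of 20 (100 kb), 24 of 24 (at least 8 probes) and 11 of 11 (probes beyond 4 left out) were called, or 270 of 306 single probes. The other counts reported were 13 (3T3-L1 minus T cells), 0 (Stat4 KO Th1 minus Th1), 1 (Th1 minus naive), 1 (Th2 minus naive) and 7 (Th1 minus Th2), and in that order 0 bins were called under 4 of 21, 14 of 17, 9 of 18, 7 of 18 and 5 of 18 alternatives. The cause of these changes was not tested.

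For 3T3-L1 minus T cells the count was 8 of 66 with 20-kb bins, 4 after scaling by the spread off the bait chromosome, 2 with probes beyond 4 left out, 20 as single probes, 0 with scaled flanks and 0 with trend and robust settings. Quantile normalization gave 1 bin, higher, and turned the window mean to 0.10. With 20-kb bins the window mean was -0.83 and passed (exact permutation p = 0.0357). For Stat4 KO Th1 minus Th1 it was 2 bins after quantile normalization and 1 with scaled flanks, all lower, and 1 as single probes, higher. For Th1 minus naive it was 2 with 20-kb or 100-kb bins and 0 after quantile normalization, with scaling by the spread, with probes beyond 4 left out, with trend and robust settings, with the compared groups alone and with the serial series as a block. For Th2 minus naive it was 0 with 100-kb bins, scaling by the spread, scaled flanks, at least 8 probes, trend and robust settings, the compared groups alone and the serial series as a block, 4 (all higher) with medians, 2 with probes beyond 4 left out and 3 as single probes. For Th1 minus Th2 it was 1 with 20-kb bins (lower), 2 after quantile normalization (both higher), 1 (higher) after scaling by the spread, 1 (higher) with scaled flanks, 0 with probes beyond 4 left out, 2 with at least 8 probes, 0 with trend and robust settings, 0 with the compared groups alone, 0 with the serial series as a block and 2 as single probes.

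A test of single probes gives no value for a bin, so the named bins have none under it. Named bins that turned their sign were bin 1 of Th1 minus naive, at 0.20 after quantile normalization, 0.049 after scaling by the spread and 1.52 with scaled flanks, and bins 7 (1.33), 30 (1.63) and 6 (1.52) of Th1 minus Th2, with scaled flanks. With each array left out in turn the counts ranged from 0 to 14 for 3T3-L1 minus T cells, 0 to 0 for Stat4 KO Th1 minus Th1, 0 to 2 for Th1 minus naive, 1 to 3 for Th2 minus naive, 0 to 5 for Th1 minus Th2 and 37 to 37 for the bait comparison. The window mean ranged from -0.96 to -0.72 and the side difference from 0.04 to 0.24.

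With the replicate number as a block, although the numbers do not pair the arrays, Th1 minus Th2 had 4 called bins, 3T3-L1 minus T cells 12, and the other counts were as reported. The serial series as a fixed block could not be fitted for Stat4 KO Th1 and 3T3-L1, and as a random block (chosen after seeing the data) it left 15, 0, 1, 1 and 7 calls in the order given above. Fits within a series are those that leave out Th1 replicate 1 or 2. Scaling by the flanks was not defined for the bait comparison. Precision is limited by 2 arrays a group, and saturation of the highest probes was not measured.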
